A study of Homo sapiens with 27 samples.

Results

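The genes for integrin and laminin chains were followed across 9 groups of cultured human cancer cells. Rows of the count table were taken as members when their gene symbol named an integrin alpha or beta chain or a laminin alpha, beta or gamma chain and the gene was protein coding. The 37 members described here, among 24566 rows, are 18 integrin alpha chains, 8 integrin beta chains and 11 laminin chains. Integrin binding proteins (ITGB1BP1, ITGB1BP2, ITGB3BP), the integrin-like protein gene ITGBL1 and 4 antisense genes were left out.

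Integrins are cell surface receptors that join 1 alpha chain to 1 beta chain and tie the extracellular matrix to the cytoskeleton. The pair of chains sets the ligand, and ITGB1, which pairs with many alpha chains, is the most widely shared beta chain. Laminins are secreted trimers of an alpha, a beta and a gamma chain and are a main component of basement membranes. In epidermis and its carcinomas the laminin that holds LAMA3 and LAMB3 is bound by ITGA3 with ITGB1 and, in the attachment plaques called hemidesmosomes, by ITGA6 with ITGB4.

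A431 is an epidermoid carcinoma line and MDA-MB-231 an adenocarcinoma line, and RNA was taken at 48 h from 27 libraries, 3 for each group. MDA-MB-231 cells were untreated, given Compound Kushen Injection (CKI, a herbal extract product, 1.0 mg/ml, labelled as a 1 in 20 dilution), given 5-fluorouracil (5-FU, a fluoropyrimidine, 10 ug/ml), or given CKI plus 5-FU. A431 cells were untreated, given a vehicle control, CKI at the same dose, doxorubicin (an anthracycline), or CKI plus doxorubicin. The submitters call the replicates biological and each line is a single established line, while the vehicle is not named, and the doxorubicin dose is not clear from the labels. Levels are counts scaled to a common library size (CPM) after trimmed-mean scaling over all libraries, listed in the order of replicates 1, 2 and 3, and total counts ran from 17757206 to 22809339 a library.

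All 7 A431 markers, which include EGFR and keratins, had mean levels of 127 to 3560 CPM in untreated A431, and all 4 MDA-MB-231 markers had 65 to 1730 CPM in untreated MDA-MB-231. Some markers were also seen in the other line. In untreated MDA-MB-231 1 of the 7 A431 markers reached 10 CPM, at 244 CPM. In untreated A431 2 of the 4 MDA-MB-231 markers did so, with a highest mean of 697 CPM. Untreated MDA-MB-231 replicate 1 stood apart from the other 2 untreated libraries, and its log2 difference from them ran with the GC content of transcripts (Spearman's rho of -0.69 across genes). Vehicle control replicates 1 and 3 differed from their group in opposite directions (rho of -0.64 and 0.71 across genes). Members with GC-rich transcripts moved with these libraries: LAMA5, at 66.4% GC, had 178, 526 and 655 CPM in untreated MDA-MB-231, and ITGB4, at 63.6% GC, had 114, 273 and 304 CPM. Values without these libraries are given beside members that they move most.

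A difference between groups was called when edgeR (quasi-likelihood test, Benjamini-Hochberg adjustment over all tested genes) gave an adjusted p under 0.05 and a log2 fold change over 1 in size. Of the 37 members, 26 passed the low-count filter in MDA-MB-231, 36 in A431 and 30 in the fit over both lines, and the other members were not tested there. The filter keeps genes on the level reached in any 3 libraries, so members low in all groups drop out.

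Across the 9 groups 19 members had a mean of at least 1 CPM in every group, 14 had at least 10 CPM and 8 had at least 100 CPM. The 8 members over 100 CPM in every group were the receptor chains ITGA3, ITGA5, ITGA6, ITGB1 and ITGB5 and the laminin chains LAMA5, LAMB3 and LAMC1. Another 6 members stayed under 1 CPM in every group (ITGA4, ITGA8, ITGA9, ITGA11, LAMB4 and LAMC3). ITGB6 spanned the widest range of the other 12, from under 1 CPM in the 4 MDA-MB-231 groups to 167 CPM in A431 given CKI.

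**Figure D1:**
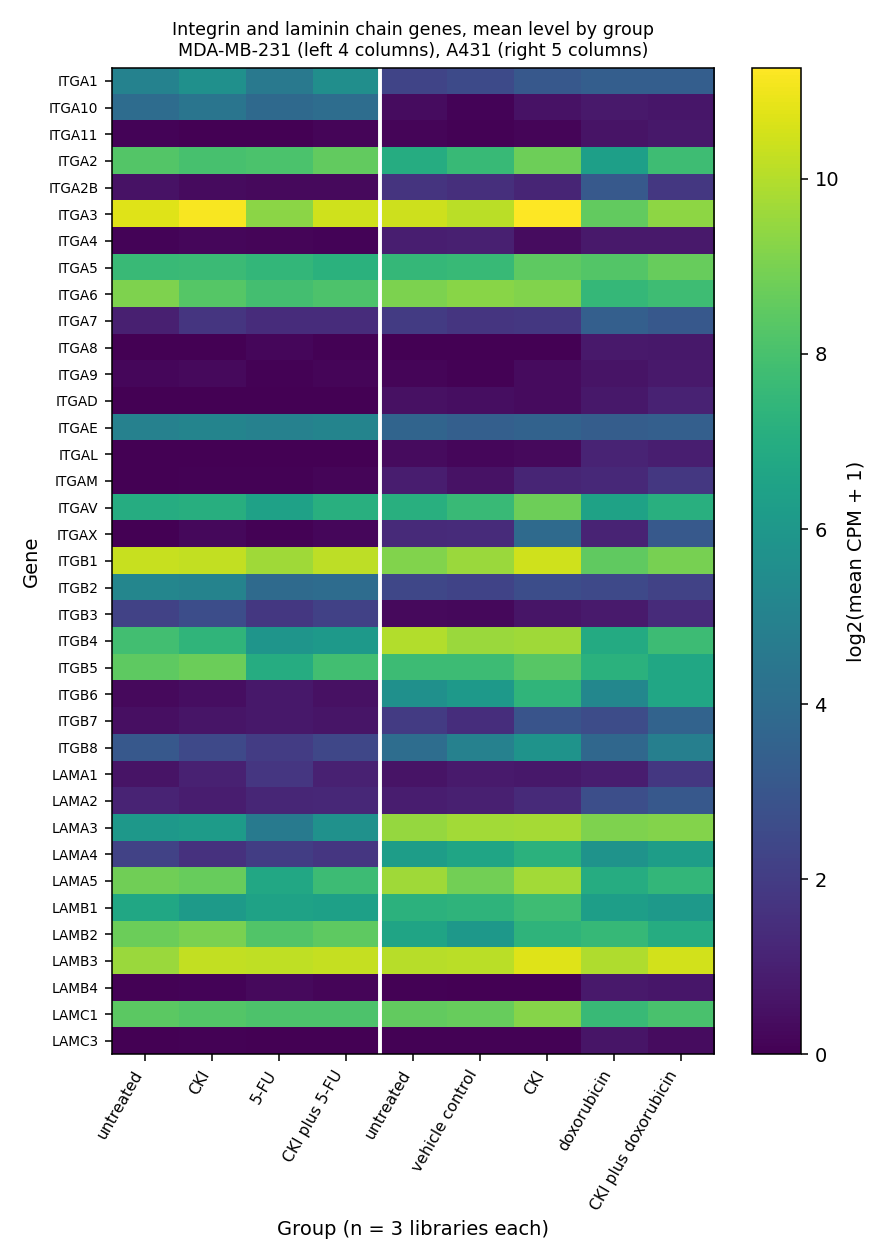
Mean level of each of the 37 members (rows) in each of the 9 groups (columns, n = 3 libraries each), with colour giving log2 of the mean CPM plus 1 and a white line between the MDA-MB-231 groups on the left and the A431 groups on the right. ITGA3, ITGB1 and LAMB3 were high in all columns, while ITGB6 and LAMA4 stood out on the A431 side and ITGA10 on the MDA-MB-231 side.

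Per kb of the canonical transcript, which allows levels to be set side by side between genes, the untreated lines differed in their leading chains. In untreated MDA-MB-231 ITGB1 had 348 ± 32.9 and ITGA3 346 ± 90.6 CPM per kb (SD, n = 3), and their ranges overlapped, with LAMB3 next at 190.2 ± 51.7 CPM per kb. In untreated A431 ITGA3 had 275 ± 12.3 and LAMB3 265 ± 19.2 CPM per kb, with overlapping ranges. ITGA6 sat at nearly the same per-kb level in the lines, 95 ± 2.4 CPM per kb in MDA-MB-231 and 91.3 ± 3.46 in A431. From LAMC1 to ITGA2, ranks 8 to 11 in MDA-MB-231, each neighbour overlapped the next, so their order was not fixed by these libraries.

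Between the untreated lines 19 of 30 tested members passed the thresholds, 11 higher and 8 lower in A431, beside 42.9% of all tested genes (22.5% higher and 20.4% lower) called. ITGA2B, ITGA4, ITGAM, ITGAX, ITGB6 and ITGB7 passed the low-count filter only on A431 libraries, and ITGA10 and ITGB3 only on MDA-MB-231 libraries. For these, only a difference toward the line that passed the filter could be called. The median log2 fold change of the tested members was 0.20, against 0.094 for all tested genes. Leaving out untreated MDA-MB-231 replicate 1 also gave 19 called members.

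Among receptor chains, ITGB6, the beta chain of an epithelial receptor for latent TGF-beta and fibronectin, had 50.5, 49.6 and 49 CPM in untreated A431 and 0.47, 0 and 0.197 CPM in untreated MDA-MB-231. The log2 fold change was 7.88 ± 0.287 (SE; adjusted p = 1.9e-11), and the row carries the same counts as a second gene that shares its Ensembl identifier. ITGB4, the beta chain of hemidesmosomes, had 1021, 919 and 1054 CPM in A431, all above the MDA-MB-231 libraries, with a log2 fold change of 2.17 ± 0.25 (SE; adjusted p = 2.8e-06) and 1.85 without untreated MDA-MB-231 replicate 1. ITGB8, another chain that pairs with ITGAV, differed by 1.10 ± 0.131 (SE; adjusted p = 3.9e-06) on the log2 scale, and fell under the threshold without untreated A431 replicate 3 (1.00) or untreated MDA-MB-231 replicate 3 (0.98).

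Receptor chains with lower counts in A431 included ITGB1 and ITGA2, which join as a collagen receptor, and ITGA1, ITGA10, ITGB2 and ITGB3. ITGB1 had 558, 560.5 and 582 CPM in untreated A431 and 1441, 1229 and 1228 CPM in untreated MDA-MB-231, with no overlap and a log2 fold change of -1.15 ± 0.0766 (SE; adjusted p = 1e-08). ITGA2 differed by -1.24 ± 0.0824 (SE; adjusted p = 9.8e-09) on the log2 scale. Against the vehicle control libraries in place of the untreated A431 libraries these differences were -0.70 and -0.61, under the threshold. With GC content and length offsets ITGB1 also fell short of the threshold (-0.97).

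ITGA10, a collagen receptor chain best known from cartilage, had 16.6, 13.5 and 15 CPM in untreated MDA-MB-231 and 0.478, 0.165 and 0.247 CPM in untreated A431, a log2 fold change of -5.59 ± 0.217 (SE; adjusted p = 3.5e-11). ITGB3, the beta chain of the vitronectin receptor and of the platelet fibrinogen receptor, had 2.87, 3.69 and 4.28 CPM in MDA-MB-231 and 0.179, 0.33 and 0.124 CPM in A431 (-3.98 ± 0.32 SE, adjusted p = 7.3e-08). ITGA1 differed by -2.92 and ITGAE, the alpha chain of a receptor for E-cadherin, by -1.35 on the log2 scale. Both share exonic bases with another gene (PELO and HASPIN), and the library kit did not keep strand, so the genes cannot be told apart there. Among the members the largest shared stretches were in ITGA4 (2813 bases, with CERKL), ITGB3 (2266), ITGB7 (1881, with ZNF740) and LAMA1 (1641).

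Among chains known from white blood cells, ITGAX and ITGAM were low in both untreated lines. Per kb, ITGB2 ranked 14 among the members in untreated MDA-MB-231. ITGB2, the shared leukocyte beta chain, had 22.1, 40 and 42.8 CPM in untreated MDA-MB-231 and 4, 3.9 and 4.83 CPM in untreated A431 (-2.99 ± 0.223 SE, adjusted p = 3.3e-08). ITGAX and ITGAM, its alpha partners in monocytes and neutrophils, rested on 79 and 46 counts over the 3 untreated A431 libraries and on 1 count each over the 3 untreated MDA-MB-231 libraries, so the ratios were 94.6 (exact 95% Poisson interval 16.5 to 3780) and 55.1 (9.41 to 2220), which cover counting error only. Of 3 leukocyte markers PTPRC and CD3E were at or under 0.366 CPM in both untreated lines and CD14 was at 7.71 CPM in A431 and 13.9 CPM in MDA-MB-231.

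Among laminin chains the A431-side differences lay in LAMA4 and LAMA3. LAMA3 had 679, 705 and 754 CPM in untreated A431 and 58, 63.2 and 69.8 CPM in untreated MDA-MB-231, with no overlap and a log2 fold change of 3.54 ± 0.0801 (SE; adjusted p = 2.1e-13). LAMA4, a chain of vessel and muscle basement membranes, differed by 4.48 ± 0.117 (SE; adjusted p = 7.1e-13). LAMB3, the beta chain that joins LAMA3, differed by 0.53 ± 0.147 (SE; adjusted p = 0.0048), under the fold threshold, and by 0.33 without untreated MDA-MB-231 replicate 1. LAMB2 was lower in A431 by -2.08 ± 0.127 (SE; adjusted p = 3.8e-09), with 101, 96.4 and 89.8 CPM in A431 and 315, 455 and 492 CPM in MDA-MB-231.

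LAMB3 and LAMA3 stood in different proportions in the lines. The per-kb ratio of LAMB3 to LAMA3 was 3.96 ± 0.217 (SD, n = 3) in untreated A431 and 31.5 ± 6.5 in untreated MDA-MB-231. The size of this ratio rests on canonical lengths of 4.01 kb for LAMB3 and 10.7 kb for LAMA3, and which transcripts the cells used was not tested. For the receptor, the per-kb ratio of ITGB4 to ITGA6 was 1.85 ± 0.102 in untreated A431 and 0.409 ± 0.176 in untreated MDA-MB-231, where replicate 1 gave the lowest value.

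Promoter sequences from RefSeq (GRCh38.p14, the 250 bases before an annotated start, printed on the strand of the gene) were matched to 26 of the 37 members in 33 windows. LAMA3 and LAMB3 are shown because their 5-FU values differed in direction, and because they were the 2 members with a match to the AP-1 motif TGANTCA, searched on both strands and given in capitals. These are 2 of 33 member windows, beside 6.57% of 35116 windows of all genes that hold a match. The LAMA3 window lies at chr18:23872770-23873019 on the plus strand and the LAMB3 window at chr1:209651375-209651624 on the minus strand, 1 of 3 LAMB3 windows. Matches began 125 and 69 bases before the start in LAMA3 and 67 bases before it in LAMB3. These starts were not matched to the canonical transcripts used for levels per kb and can belong to other transcripts of the genes.
LAMA3: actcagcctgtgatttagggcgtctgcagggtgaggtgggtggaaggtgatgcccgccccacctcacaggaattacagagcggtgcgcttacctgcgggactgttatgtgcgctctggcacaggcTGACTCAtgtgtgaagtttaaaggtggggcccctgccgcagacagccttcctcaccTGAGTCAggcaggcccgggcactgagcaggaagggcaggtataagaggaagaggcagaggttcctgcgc
LAMB3: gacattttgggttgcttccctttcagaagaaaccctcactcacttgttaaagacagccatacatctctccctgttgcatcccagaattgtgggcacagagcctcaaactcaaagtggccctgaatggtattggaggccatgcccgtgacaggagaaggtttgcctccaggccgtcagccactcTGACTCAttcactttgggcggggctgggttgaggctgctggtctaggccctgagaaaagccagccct

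5-FU in MDA-MB-231 was followed by lower ITGA3, ITGA6 and ITGB4, chains of laminin-binding receptors. Of 26 tested members 2 rose and 8 fell with 5-FU, beside 13.3% of all tested genes called (6.01% higher and 7.31% lower). The members that fell were ITGA3, ITGA6, ITGB2, ITGB4, ITGB5, ITGB8, LAMA3 and LAMA5, and those that rose were the low members LAMA1 and ITGB6. The median log2 fold change of the tested members was -0.39, against -0.0037 for all tested genes.

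ITGA3, the alpha chain that joins ITGB1 as a laminin receptor, had 1179, 1928 and 1964 CPM in untreated and 659, 640.5 and 621 CPM in 5-FU libraries. The groups did not overlap, and the log2 fold change was -1.40 ± 0.147 (SE; adjusted p = 6.9e-06), or -1.60 without untreated replicate 1. ITGB1 itself had 1441, 1229 and 1228 CPM in untreated and 815, 795 and 828 CPM in 5-FU libraries, a log2 fold change of -0.68 ± 0.0658 (SE; adjusted p = 3.7e-06) that stayed under the fold threshold.

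ITGA6 had 541, 548 and 568 CPM in untreated and 236, 240.1 and 243 CPM in 5-FU libraries, tight within each group, with a log2 fold change of -1.20 ± 0.0529 (SE; adjusted p = 8.9e-09). Its partner ITGB4 had 62.7, 56.6 and 55.8 CPM with 5-FU, below each untreated library, and fell by 3.95-fold. The log2 fold change of ITGB4 was -1.98 ± 0.265 (SE; adjusted p = 5.1e-05), and -2.31 without untreated MDA-MB-231 replicate 1. ITGB5, a beta chain that joins ITGAV as a vitronectin receptor, had 319, 376 and 355 CPM in untreated and 127, 126 and 119 CPM in 5-FU libraries (-1.50 ± 0.0675 SE, adjusted p = 1e-08 on the log2 scale).

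Among laminin chains LAMA3 had 58, 63.2 and 69.8 CPM in untreated and 26.8, 22.7 and 23.6 CPM in 5-FU libraries, with no overlap and a log2 fold change of -1.39 ± 0.0813 (SE; adjusted p = 7.3e-08). LAMB3 stood at 1193, 1135 and 1156 CPM with 5-FU (0.61 ± 0.149 SE, adjusted p = 0.0042, under the fold threshold), and the log2 fold change was 0.40 without untreated replicate 1. The per-kb ratio of LAMB3 to LAMA3 was 127 ± 7.62 in 5-FU libraries (SD, n = 3).

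LAMA5, the alpha chain of the widespread epithelial laminins, had 132, 101 and 87.8 CPM with 5-FU, below each of the untreated libraries. Its log2 fold change was -2.08 ± 0.358 (SE; adjusted p = 0.00036), or -2.47 without untreated replicate 1, which held the lowest untreated value. LAMA1, an alpha chain of early embryonic basement membranes, rose from 0.731, 0.461 and 0.344 to 2.81, 1.95 and 2.48 CPM (2.24 ± 0.284 SE, adjusted p = 3.3e-05). ITGB2 had 14.3, 14.8 and 12.6 CPM with 5-FU (-1.33 ± 0.188 SE, adjusted p = 8e-05) and ITGB8 had 3.68, 2.38 and 3.15 CPM (-1.28 ± 0.201 SE, adjusted p = 0.00017), each below its untreated libraries. Without untreated replicate 1 these were -1.57 and -1.11. The rise of ITGB6 (1.64, or 2.75 without untreated replicate 1) rested on means of 0.222 and 0.676 CPM, and the call was lost without any 1 of the 5-FU replicates 1, 2 and 3 or of the untreated replicates 2 and 3.

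With CKI alone in MDA-MB-231, 2 of 26 tested members passed the thresholds, beside 5.96% of all tested genes (3.76% higher and 2.21% lower). These were ITGA7, the alpha chain of the muscle laminin receptor, at 0.731, 1.24 and 0.984 CPM in untreated and 2.88, 2.14 and 1.87 CPM in CKI libraries (1.19 ± 0.251 SE, adjusted p = 0.003), and LAMA1 (1.05 ± 0.325 SE, adjusted p = 0.024). Without CKI replicate 1 neither was called, with log2 fold changes of 1.00 and 0.88. LAMA1 also lost its call without untreated replicate 2 (0.98) or 3 (0.84).

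Some members differed by smaller amounts, under the fold threshold. ITGA6 had 305, 315 and 331 CPM with CKI, each below the untreated libraries, at a log2 fold change of -0.81 ± 0.0525 (SE; adjusted p = 4.8e-07). LAMB1, the beta chain shared by many laminins, had 107, 104 and 105 CPM in untreated and 70.4, 68.4 and 70.6 CPM in CKI libraries (-0.60 ± 0.0523 SE, adjusted p = 5.2e-06). LAMB3 differed by 0.64 ± 0.149 (SE; adjusted p = 0.0056), and its untreated replicate 1 lay at 526 CPM against 858 and 907 CPM in the other untreated libraries. Without that replicate the log2 fold change of LAMB3 was 0.43.

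When CKI was added to 5-FU, 4 of 26 tested members passed the thresholds against 5-FU alone, beside 9.77% of all tested genes (5.26% higher and 4.51% lower). ITGA3 had 1421, 1332 and 1453 CPM in the combination, above the 5-FU libraries, with a log2 fold change of 1.13 ± 0.146 (SE; adjusted p = 5.6e-05). LAMA3 had 53.4, 48.7 and 51.1 CPM (1.07 ± 0.0811 SE, adjusted p = 9.8e-07) and ITGA1 had 47.5, 50.3 and 43.8 CPM against 22.9, 21.6 and 23.3 CPM with 5-FU alone (1.06 ± 0.114 SE, adjusted p = 1.3e-05). With offsets for GC content and length ITGA1 lost its call (0.95).

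LAMA1 was lower in the combination (-1.24 ± 0.247 SE, adjusted p = 0.0014), the 1 member called in that direction. The per-kb ratio of LAMB3 to LAMA3 was 63.7 ± 1.88 in the combination. ITGB5, at 225, 228 and 242 CPM, differed by 0.90 ± 0.0668 (SE; adjusted p = 8.1e-07) and LAMA5 by 0.96 ± 0.349 (SE; adjusted p = 0.037), both under the fold threshold, and with those offsets LAMA5 passed it (1.04). Other alternatives weakened LAMA5. Its adjusted p was 0.06 with the replicate block, and 0.089 to 0.12 without 5-FU replicate 2 or 3 or combination replicate 1 or 3.

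The interaction term asks whether CKI acted differently with 5-FU present than without it. It was called for 4 of 26 tested members, beside 6.84% of all tested genes (3.04% higher and 3.81% lower), namely ITGA6 (1.03 ± 0.074 SE, adjusted p = 3.4e-06), ITGB8 (1.18 ± 0.285 SE, adjusted p = 0.0081), ITGA7 (-1.20 ± 0.347 SE, adjusted p = 0.021) and LAMA1 (-2.29 ± 0.408 SE, adjusted p = 0.0014). For ITGA6 the CKI difference was -0.81 without 5-FU and 0.22 with it. The term for LAMA3 (0.92 ± 0.112 SE, adjusted p = 0.00013) had a small adjusted p but stayed under the fold threshold. Without untreated MDA-MB-231 replicate 1, 7 members were called, and without CKI replicate 1 there were 2. The share of all genes called in those runs is not given here, so these counts have no background beside them. ITGA6 lost its call with GC and length offsets (0.93) or without CKI replicate 1 (1.00), ITGA7 without that replicate (-1.01) or 5-FU replicate 2 (-1.04), and ITGB8 without CKI plus 5-FU replicate 2 (1.00).

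In A431, CKI raised a group of integrin chains and no laminin chain past the thresholds. Of 36 tested members 8 rose and 1 fell, beside 12% of all tested genes called higher and 10.4% lower. All 8 were integrin chains, which are 26 of the 36 tested members. The median log2 fold change of the tested members was 0.53, against 0.0028 for all tested genes.

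ITGA2, the alpha chain of the collagen receptor with ITGB1, had 115, 128 and 130.5 CPM in untreated, 206, 198 and 169.6 CPM in vehicle control and 434, 437 and 450.0 CPM in CKI libraries. The vehicle libraries lay between the other groups without overlap. The log2 fold change of CKI was 1.73 ± 0.0739 (SE; adjusted p = 2.1e-15) against untreated and 1.10 against vehicle control.

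ITGAV, the alpha chain shared by ITGB3, ITGB5, ITGB6 and ITGB8, had 130.0, 143 and 141 CPM in untreated, 219, 208 and 175 CPM in vehicle control and 432, 436 and 442 CPM in CKI libraries, in the same order. It differed from untreated by 1.57 ± 0.0712 (SE; adjusted p = 6e-15) and from vehicle control by 1.02 on the log2 scale. ITGB6 had 50.5, 49.6 and 49 CPM in untreated, 75.6, 69.2 and 56.6 CPM in vehicle control and 167, 167 and 167 CPM in CKI libraries, for log2 fold changes of 1.66 ± 0.0775 (SE; adjusted p = 1e-14) and 1.21.

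ITGB8 had 15.8, 14.8 and 15.8 CPM in untreated, 33.4, 31.2 and 24.4 CPM in vehicle control and 57.9, 52 and 54.4 CPM in CKI libraries. ITGB1 had 558, 560.5 and 582 CPM in untreated, 810.2, 808 and 676 CPM in vehicle control and 1396, 1362 and 1405 CPM in CKI libraries. The vehicle control libraries again lay between the other groups. Their log2 fold changes against untreated were 1.73 ± 0.0984 (SE; adjusted p = 3.2e-13) and 1.20 ± 0.0619 (SE; adjusted p = 5.8e-14). Against vehicle control they were 0.78 and 0.76, under the fold threshold. With vehicle control as the reference 12 members were called in all, beside 19.5% of all tested genes. With CKI in A431 and the adjusted p alone, 22 members were called, beside 67% of all tested genes.

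ITGAX, the leukocyte chain also called CD11c, showed the largest rise of the tested members with CKI in A431. It had 1.85, 1.7 and 1.05 CPM in untreated, 2.14, 1.52 and 1.31 CPM in vehicle control and 14.7, 14.4 and 12.2 CPM in CKI libraries. The fold change was 8.33 (3.06 ± 0.169 SE, adjusted p = 2e-13 on the log2 scale), and 2.96 on the log2 scale against vehicle control. Its beta partner ITGB2 stayed at 5.4, 6.37 and 4.5 CPM. Of the leukocyte markers, PTPRC was at 0 in every untreated and CKI library of A431 and CD14 averaged 7.71 CPM in untreated and 5.3 CPM in CKI libraries.

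**Figure D2:**
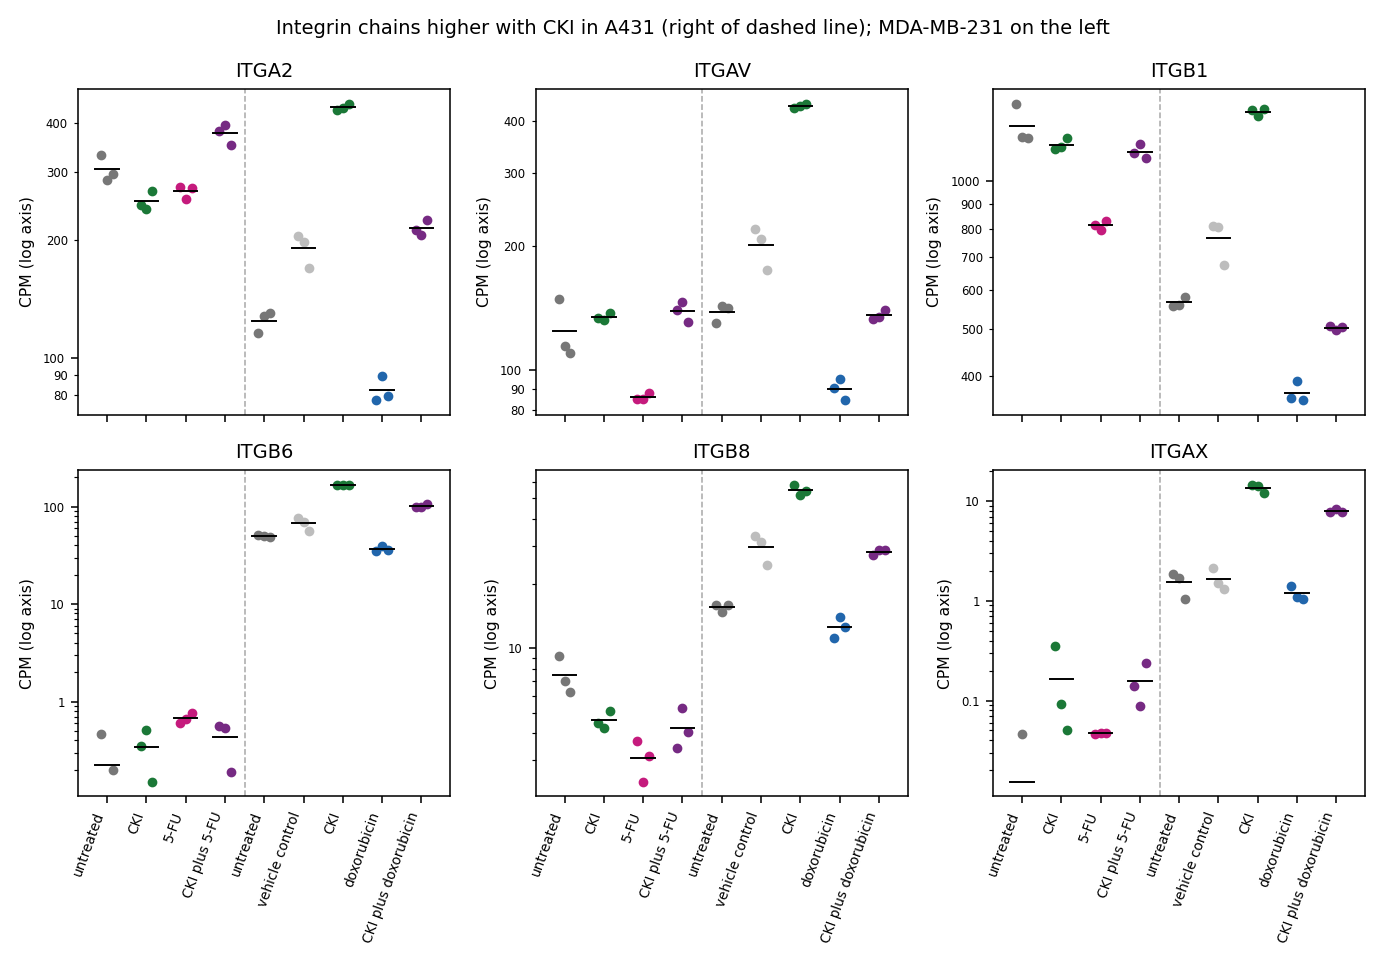
Level in CPM on a log axis of 6 integrin chains in each of the 27 libraries, with points for libraries, bars for group means (n = 3), MDA-MB-231 groups left of the dashed line and A431 groups right of it. In A431 the CKI libraries lie above the untreated and vehicle control libraries in all 6 panels, and libraries with no count (ITGB6 and ITGAX in untreated MDA-MB-231) cannot be drawn on this axis.

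ITGB7, the beta chain of the gut-homing receptor of lymphocytes, rose from 3.23, 2.25 and 3.22 to 6.93, 6.05 and 6.69 CPM (1.09 ± 0.166 SE, adjusted p = 3.6e-06), shared exonic bases with ZNF740, and lost its call without untreated A431 replicate 2 (0.93). ITGB3 (1.24) rested on means of 0.211 and 0.55 CPM and lost its call without untreated replicate 1 (1.12) or 3 (0.99) or CKI replicate 2 (0.97). The member that fell was ITGA4, a chain of receptors for fibronectin and VCAM1, at means of 0.933 CPM in untreated and 0.302 CPM in CKI libraries (-1.71 ± 0.36 SE, adjusted p = 0.00022).

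None of the 10 tested laminin chains described here passed the thresholds with CKI in A431. LAMA4 differed by 0.83, LAMC1 and LAMB3 by 0.57 each, and LAMB1 by 0.46 on the log2 scale. Among integrin chains ITGA5, the fibronectin receptor chain, differed by 0.91 ± 0.0564 (SE; adjusted p = 1.5e-12) and ITGA3 by 0.79 ± 0.0662 (SE; adjusted p = 3.2e-10), and ITGA3 passed the threshold against vehicle control (1.05).

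The transcripts of ITGA2, ITGAV, ITGB1, ITGB6 and ITGB8 are among the most AT-rich of the members, at 38.3% to 40.2% GC, and those of ITGAX and ITGB7 are at 56.3% and 59.4%. Vehicle control against untreated ran with GC content across all genes (Spearman's rho of -0.58 over 15843 genes), and CKI against untreated did so less (rho of -0.1). Over the 36 tested members the rho was -0.57 for vehicle control and -0.35 for CKI, and over the 30 members tested across both lines it was -0.51 for the cell line by CKI term. With transcript length the rho across all genes was 0.31 for vehicle control, 0.25 for CKI and 0.29 for the cell line by CKI term. With offsets for GC content and transcript length the CKI log2 fold changes were 1.37 for ITGA2, 1.22 for ITGAV, 1.05 for ITGB1, 1.45 for ITGB6, 1.34 for ITGB8 and 3.03 for ITGAX, all still called, while ITGB3 lost its call.

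Vehicle control against untreated A431 called 1 of 36 tested members, beside 2.54% of all tested genes (1.05% higher and 1.5% lower). That member was ITGA10 (-1.63 ± 0.64 SE, adjusted p = 0.045), at 0.478, 0.165 and 0.247 CPM in untreated and 0.0577, 0.152 and 0.0545 CPM in vehicle control libraries, and it was not called without untreated replicate 1 or 3 or vehicle replicate 1 or 3. Under the fold threshold, ITGB8 differed by 0.95 ± 0.102 (SE; adjusted p = 3.2e-07), ITGA2 by 0.63, ITGAV by 0.55 and LAMA5 by -0.80 on the log2 scale. The LAMA5 values in vehicle control were 319, 451 and 621 CPM, and the replicates 1 and 3 that differ by GC content are its lowest and highest. Without vehicle replicate 3, ITGB8 (1.07) and LAMA5 (-1.07) passed the threshold.

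Doxorubicin in A431 lowered 4 abundant members and raised 11 low ones past the thresholds, 15 of 36 tested, beside 37.3% of all tested genes (23% higher and 14.3% lower). Some of the 11 were tested only because of their level with doxorubicin, as given below. The members that fell were ITGA3, ITGA6, ITGB4 and LAMA5, where 14.3% of all tested genes fell. These 4 were also among the 8 members that fell with 5-FU in MDA-MB-231, a comparison that shares no library with this one, so the overlap is 4 of 8 and 4 of 4. Among the 13374 genes tested in both lines, 292 fell in both, which is 31.3% of those that fell with 5-FU and 14.2% of those that fell with doxorubicin. The median log2 fold change was -0.04 for tested members and 0.017 for all tested genes.

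ITGB4 had 1021, 919 and 1054 CPM in untreated and 116, 116 and 121 CPM in doxorubicin libraries. The groups lay far apart, with an 8.67-fold fall and a log2 fold change of -3.12 ± 0.13 (SE; adjusted p = 8.3e-16). Its partner ITGA6 had 518, 521 and 554 CPM in untreated and 174, 194 and 178 CPM in doxorubicin libraries (-1.57 ± 0.0599 SE, adjusted p = 1.7e-16), and the per-kb ratio of ITGB4 to ITGA6 was 1.85 ± 0.102 in untreated and 0.639 ± 0.0454 in doxorubicin libraries (SD, n = 3).

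ITGA3 had 1344, 1282 and 1403 CPM in untreated and 371, 373 and 380.4 CPM in doxorubicin libraries (-1.87 ± 0.0684 SE, adjusted p = 8.2e-17). LAMA5 had 962, 792 and 690.0 CPM in untreated and 123, 123 and 125 CPM in doxorubicin libraries (-2.75 ± 0.15 SE, adjusted p = 1e-13), and -1.95 on the log2 scale against vehicle control. All 4 falls kept their call against vehicle control and with the offsets for GC content and length, where ITGB4 was at -2.74 and -2.76.

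**Figure D3:**
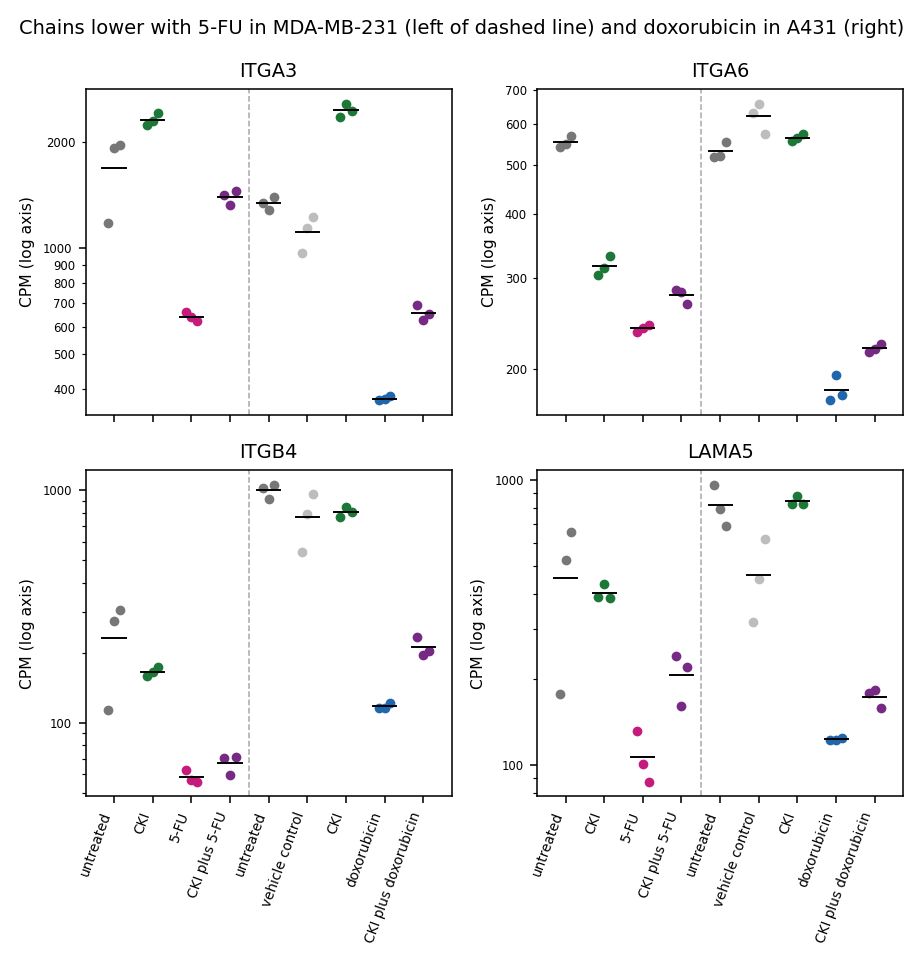
Level in CPM on a log axis of ITGA3, ITGA6, ITGB4 and LAMA5 in each library, with points for libraries, bars for group means (n = 3), MDA-MB-231 left of the dashed line and A431 right of it. The 5-FU and doxorubicin libraries lie below the untreated libraries of their line in all 4 panels, and untreated MDA-MB-231 replicate 1 is the lowest untreated point for ITGA3, ITGB4 and LAMA5.

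The promoters of ITGA2 and ITGB6, which rose together in A431 with CKI, and of LAMA5, which fell with both cytotoxic drugs, are shown because they differ widely in base composition. The windows are chr5:52989102-52989351 for ITGA2 on the plus strand, chr2:160200273-160200522 for ITGB6 on the minus strand and chr20:62367313-62367562 for LAMA5 on the minus strand (RefSeq, GRCh38.p14), and they hold 76.4%, 30% and 82.8% GC. Capitals mark the GC box GGGCGG on either strand, with 4 matches in ITGA2, 5 in LAMA5 and none in ITGB6. Over all members 17 of 33 windows held a match, beside 42.6% of the windows of all genes.
ITGA2: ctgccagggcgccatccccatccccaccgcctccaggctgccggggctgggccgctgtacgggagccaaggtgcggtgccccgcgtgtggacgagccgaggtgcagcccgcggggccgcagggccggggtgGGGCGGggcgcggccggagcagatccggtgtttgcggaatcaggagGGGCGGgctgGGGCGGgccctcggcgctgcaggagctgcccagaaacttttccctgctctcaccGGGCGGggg
ITGB6: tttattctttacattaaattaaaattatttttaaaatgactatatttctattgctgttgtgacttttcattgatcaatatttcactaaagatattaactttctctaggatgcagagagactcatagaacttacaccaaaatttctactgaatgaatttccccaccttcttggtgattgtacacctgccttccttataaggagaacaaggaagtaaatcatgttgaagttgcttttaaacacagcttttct
LAMA5: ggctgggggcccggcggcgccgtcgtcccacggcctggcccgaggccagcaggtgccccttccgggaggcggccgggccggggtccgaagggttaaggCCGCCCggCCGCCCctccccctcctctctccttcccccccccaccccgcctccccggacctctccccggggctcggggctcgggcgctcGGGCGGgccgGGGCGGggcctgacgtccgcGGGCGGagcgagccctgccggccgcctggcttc

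Against untreated, LAMB1, LAMB2, LAMC1, LAMA3 and LAMB3 stayed under the fold threshold with doxorubicin. LAMB1 had 146, 153 and 152 CPM in untreated and 75.5, 79.4 and 77.8 CPM in doxorubicin libraries (-0.98 ± 0.0558 SE, adjusted p = 2.3e-13) and LAMC1 differed by -0.94 ± 0.0568 (SE; adjusted p = 6.2e-13). LAMB2, the beta chain of neuromuscular and kidney basement membranes, had 101, 96.4 and 89.8 CPM in untreated and 184, 188 and 186 CPM in doxorubicin libraries (0.93 ± 0.061 SE, adjusted p = 2.8e-12) and lay on the higher side. LAMA3 was at -0.40 on the log2 scale, and LAMB3 at 962, 966 and 977 CPM against 1060.0, 988 and 1142 CPM. Against vehicle control LAMB1 (-1.07), LAMC1 (-1.02) and LAMB2 (1.52) passed the threshold, and with offsets for GC content and length they did too (-1.11, -1.06 and 1.09).

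The 11 members that rose with doxorubicin (ITGA1, ITGA2B, ITGA7, ITGA8, ITGA9, ITGA10, ITGA11, ITGAL, ITGB3, LAMA2 and LAMB4) had mean levels under 10 CPM with the drug. Of these, ITGA8, ITGA9, ITGA11, ITGAL and LAMB4 had means of at most 0.264 CPM in the untreated, vehicle control and CKI groups. They passed the low-count filter on their levels with doxorubicin, alone or with CKI, so only a rise could be called for them. The same held for ITGA10 and ITGB3, with means of at most 0.46 and 0.55 CPM in those other groups. ITGA7 went from 3.11, 2.36 and 3.09 to 9.54, 9.77 and 10.1 CPM (1.76 ± 0.141 SE, adjusted p = 1e-10), and ITGA2B, the platelet alpha chain, from 2.99, 1.87 and 1.73 to 7.49, 7.84 and 7.89 CPM (1.79 ± 0.196 SE, adjusted p = 2e-08). ITGA10 lost its call without untreated replicate 2 (0.88) and ITGA1 against vehicle control (0.96). LAMA2, the alpha chain of muscle laminin, went from 0.597, 1.15 and 0.866 to 5.63, 5.26 and 5.53 CPM (2.60 ± 0.216 SE, adjusted p = 2e-10). ITGAL, the alpha chain of the lymphocyte receptor for ICAM1, had 0.239, 0.33 and 0.186 CPM in untreated and 1.12, 1.24 and 1.1 CPM in doxorubicin libraries (2.13 ± 0.382 SE, adjusted p = 2.6e-05).

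ITGA8 had no count in the untreated, vehicle control and CKI libraries of A431 and 0.489, 0.943 and 0.703 CPM with doxorubicin, at least 3.83-fold higher against a floor of 3 counts a library. LAMB4 had 2 counts over the untreated libraries and 42 over the doxorubicin libraries, a ratio of 17.7 (exact 95% Poisson interval 4.61 to 151). Beside these, the leukocyte marker PTPRC was at 0 in untreated and at 1.32 ± 0.196 CPM (SD, n = 3) in doxorubicin libraries, CD3E was at 0.0589 and 0.265 CPM and CD14 at 7.71 and 7.36 CPM, and the platelet markers GP9 and PF4 were at or under 0.0657 CPM in both. The part of such markers in these results was not tested, and more cells with a transcript and more of it per cell cannot be told apart in bulk samples.

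Scaling mattered in this comparison. With total counts in place of trimmed-mean factors the median log2 fold change of all tested genes with doxorubicin was 0.36, and 20 members were called, 16 higher and 4 lower. With DESeq2 the median was 0.11 and 16 members were called, 12 higher and 4 lower. No share of all tested genes called is given for these runs, so a change in these counts is not read as particular to the members.

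CKI added to doxorubicin called 8 of 36 tested members against doxorubicin alone, 7 higher and 1 lower, beside 14.9% of all tested genes (6.89% higher and 8.03% lower). ITGA2 had 77.7, 89.7 and 79.6 CPM with doxorubicin and 212, 206 and 226 CPM in the combination (1.41 ± 0.0743 SE, adjusted p = 2.3e-13). ITGB6 had 34.7, 39.3 and 36.1 CPM in doxorubicin libraries and 99.7 to 105 CPM in combination libraries (1.49 ± 0.0786 SE, adjusted p = 2.2e-13). ITGAX had 1.42, 1.09 and 1.05 CPM in doxorubicin and 7.88, 8.3 and 7.75 CPM in combination libraries (2.76 ± 0.181 SE, adjusted p = 8.8e-12). In each the combination libraries lay above the doxorubicin libraries without overlap.

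ITGB8 (1.19 ± 0.102 SE, adjusted p = 8.7e-10) and ITGB7 (1.11 ± 0.134 SE, adjusted p = 2e-07) were also higher, and ITGB8 fell under the fold threshold with offsets for GC content and length (0.96). LAMA1 (1.54) and ITGB3 (1.10) were higher at low levels, with combination means of 2.57 and 1.65 CPM, and ITGB3 lost its call without doxorubicin replicate 3 (0.91) or combination replicate 3 (0.93). ITGA2B was lower, at 2.74, 2.29 and 2.6 CPM (-1.58 ± 0.183 SE, adjusted p = 9.9e-08). ITGB4, at 234, 195 and 202 CPM in the combination (0.86 ± 0.123 SE, adjusted p = 2.2e-06), and ITGA3 (0.83 ± 0.0669 SE, adjusted p = 3e-10) stayed under the fold threshold.

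The CKI by doxorubicin interaction was called for 4 of 36 tested members, beside 19.5% of all tested genes (8.56% higher and 10.9% lower). For ITGB4 the term was 1.27 ± 0.171 (SE; adjusted p = 1.2e-06), where CKI differed from untreated by -0.40 and the combination from doxorubicin by 0.86, and with vehicle control as the reference it was 0.89, under the threshold. LAMB2 (-1.20 ± 0.0856 SE, adjusted p = 7.4e-11), ITGA4 (1.65 ± 0.476 SE, adjusted p = 0.0051) and ITGAD (1.47 ± 0.586 SE, adjusted p = 0.036), a leukocyte chain with at most 1.09 CPM in any group, were the others. ITGAD passed the low-count filter only on its levels with doxorubicin, alone or with CKI. ITGAV (-0.95) and ITGB5 (-0.95) came close to the fold threshold without passing it. Over the alternative runs the term ran from -1.09 to -0.405 for ITGAV and from -1.09 to -0.853 for ITGB5.

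The lines differed in how members moved with CKI. The cell line by CKI term was called for 9 of 30 tested members, 7 with a higher CKI log2 fold change in A431 and 2 with a lower one, beside 18.5% of all tested genes (8.87% higher and 9.62% lower). ITGA2 gave 2.02 ± 0.116 (SE; adjusted p = 4.3e-08), ITGAV 1.47 ± 0.145 (SE; adjusted p = 3.3e-06), ITGB1 1.35 ± 0.107 (SE; adjusted p = 5.3e-07) and ITGB8 2.45 ± 0.187 (SE; adjusted p = 3.8e-07). In MDA-MB-231 the levels of ITGA2 were 332, 285 and 297 CPM in untreated and 247, 241 and 268 CPM in CKI libraries, against the rise in A431 described above.

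For laminin chains the term was called in LAMA4 (1.68 ± 0.176 SE, adjusted p = 5.4e-06), LAMB1 (1.07 ± 0.0836 SE, adjusted p = 4.7e-07) and LAMA2 (1.18 ± 0.403 SE, adjusted p = 0.028). LAMA4 differed with CKI by 0.83 in A431 and by -0.85 in MDA-MB-231. With vehicle control in place of untreated A431 the term was 0.98 for LAMB1, 0.93 for ITGAV and 0.91 for ITGB1, under the threshold, and 1.39 for ITGA2 and 1.50 for ITGB8. With offsets for GC content and length LAMB1 (0.90) and LAMA2 (0.85) lost their calls. ITGA7 (-1.45 ± 0.335 SE, adjusted p = 0.0031) and ITGA4 (-2.33 ± 0.868 SE, adjusted p = 0.041) were the 2 with a lower value in A431, and ITGA4, at 0.084 CPM in untreated MDA-MB-231, kept its call in 8 of 20 alternatives.

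**Figure D4:**
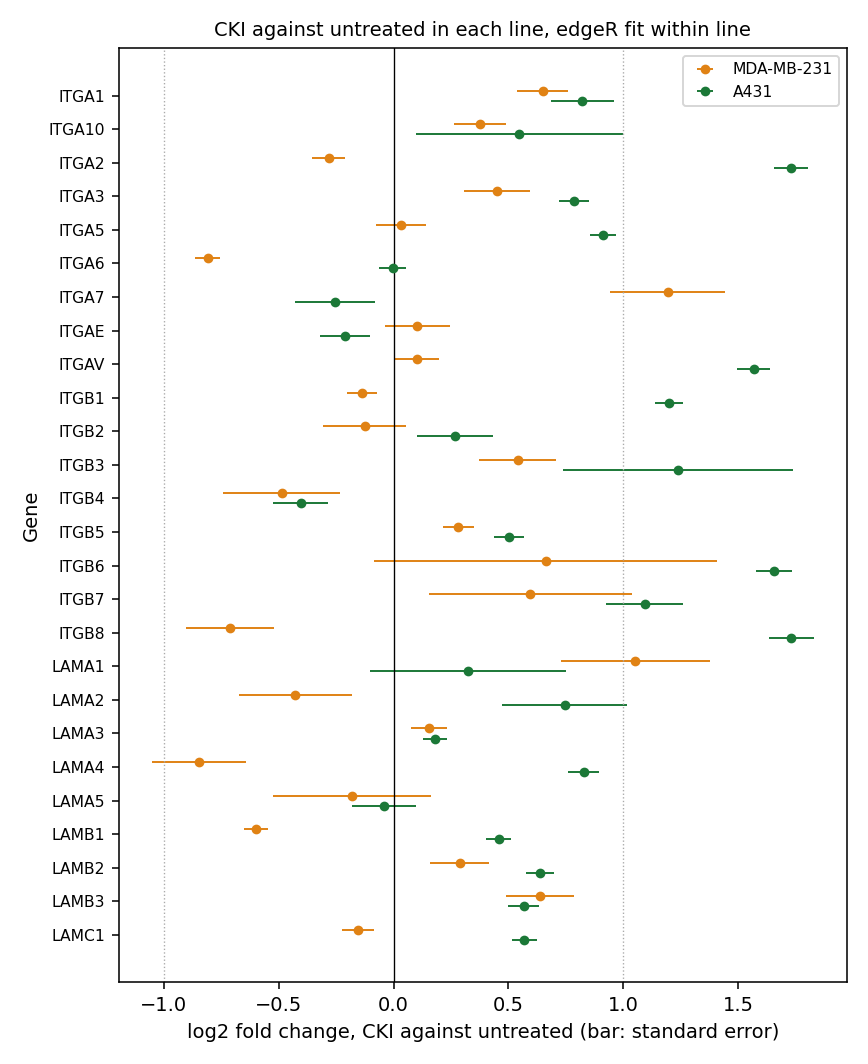
Log2 fold change of CKI against untreated (x axis) for the 26 members tested in both lines (y axis), with orange points for MDA-MB-231, green points for A431, bars for 1 standard error and dotted lines at the fold threshold. ITGA2, ITGAV, ITGB1 and ITGB8 lie right of 1 in A431 and near or below 0 in MDA-MB-231, while ITGA3, ITGB5 and LAMB3 lie right of 0 in both lines.

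Over the groups, LAMB3 over LAMA3 per kb ran from 3.49 to 6.46 over the 5 A431 group means, while the 4 group means of MDA-MB-231 spanned 31.5 to 127.

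**Figure D5:**
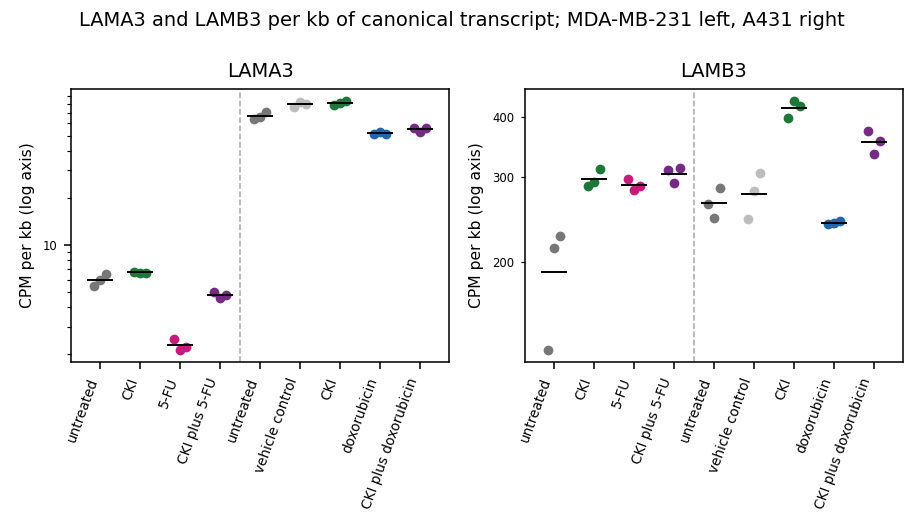
Level per kb of canonical transcript (CPM per kb, log axis) of LAMA3 and LAMB3 in each library, with points for libraries, bars for group means (n = 3), MDA-MB-231 left of the dashed line and A431 right of it. LAMA3 is higher in every A431 library than in any MDA-MB-231 library, LAMB3 overlaps between the lines, and LAMA3 is lower in every 5-FU library than in any untreated MDA-MB-231 library.

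Many members differed by the adjusted p without reaching the fold threshold, in comparisons where many genes did. By the adjusted p alone, 13 of 26 tested members were called with CKI and 20 with 5-FU in MDA-MB-231, beside 36.2% and 57.1% of all tested genes. CKI added to 5-FU gave 10 (50.4% of all tested genes) and its interaction 11 (31.4%). In A431 vehicle control gave 14 of 36 (42.5%), doxorubicin 31 (80.6%), CKI added to doxorubicin 25 (63.6%) and its interaction 16 (57.4%). The comparison of the untreated lines gave 24 of 30 (78.6%) and the cell line by CKI term 12 (47%). With vehicle control as the reference in place of untreated A431, doxorubicin called 23 members (38.5% of all tested genes), the comparison of lines 17 (42%), the cell line by CKI term 7 (14.5%) and the CKI by doxorubicin interaction 4 (21.1%).

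Partner genes of these chains were counted in 5 lists of 54 genes. Their counts are to be read beside the shares of all tested genes given with each comparison above. Of 4 hemidesmosome partners, 2 fell with doxorubicin in A431, PLEC, the linker to keratin filaments (-3.19 ± 0.137 log2 fold change, SE), and the tetraspanin CD151 (-1.98 ± 0.0683), and 1 fell with 5-FU in MDA-MB-231, PLEC (-1.22 ± 0.328). Adding CKI to doxorubicin raised PLEC (1.92 ± 0.132). COL17A1, a hemidesmosome collagen, was higher in untreated A431 than in untreated MDA-MB-231 (5.73 ± 0.095) and rose with CKI in MDA-MB-231 (1.07 ± 0.0752). Between the untreated lines another partner, DST, was called lower in A431, and the median log2 fold change of the 4 partners was -0.515.

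Of 10 basement membrane partners, 5 rose with CKI in A431 (NTN4, COL4A5, COL4A6, HSPG2 and the laminin-binding linker NID1 at 1.40 ± 0.0726) and none fell, with a list median of 1.10 against 0.0028 for all tested genes. With 5-FU 4 of 9 tested fell, the proteoglycans HSPG2 (-2.18 ± 0.406) and AGRN (-1.76 ± 0.334), COL4A2 and SPARC, and 1 rose (COL4A6). With doxorubicin 2 of 10 rose and 2 fell, AGRN (-1.46 ± 0.147) among those that fell.

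Of 23 genes for integrin activation and adhesion plaques, 21 were tested in MDA-MB-231, where 4 fell with 5-FU and none rose, among them PTK2, the focal adhesion kinase (-1.34 ± 0.0542), and TNS3 (-2.10 ± 0.117). In A431 doxorubicin raised 3 and lowered 4 of the 23, beside 23% and 14.3% of all tested genes. PTK2 (-1.35 ± 0.0553) and PARVB (-2.89 ± 0.105) were among those that fell. CKI in A431 raised 1 (TNS1) and lowered 2 (FERMT1, the epidermal kindlin, at -1.08 ± 0.0687, and PARVB), and FERMT1 also fell with CKI in MDA-MB-231 (-1.63 ± 0.0978).

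Of 12 matrix ligands, 11 were tested in each line. Doxorubicin in A431 raised 6 and lowered 1, with FN1, fibronectin, at 1.86 ± 0.056 and THBS1 at 1.98 ± 0.0592. CKI in A431 raised 3, FN1 (1.29 ± 0.0553), SPP1, the osteopontin gene (3.29 ± 0.0704), and THBS1, while in MDA-MB-231 it raised 2 and lowered 3, with FN1 at -1.12 ± 0.0579. Vehicle control in A431 raised 3 (CCN2, CCN1 and THBS1). Of 5 other laminin receptors, RPSA fell with CKI (-1.50 ± 0.0593) and with doxorubicin (-1.49 ± 0.0593) in A431, and SDC1, a syndecan, rose with CKI (1.32 ± 0.0626).

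Over the 5 lists together, 13 of 50 tested genes were called with 5-FU and 8 of 50 with CKI in MDA-MB-231, beside 13.3% and 5.96% of all tested genes. In A431 13 of 53 were called with CKI and 22 of 53 with doxorubicin, beside 22.4% and 37.3% of all tested genes.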

How the data were processed

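RNA-seq was carried out on 27 libraries, 3 for each of 9 groups, and 1 table of read counts per gene was deposited by the authors, with no normalization. Per the labels, reads were trimmed with Trim Galore 0.3.7 and aligned with STAR 2.5.3a to hg19, and edgeR is among the tools listed; the counting tool is not given in the sources used here. The library kit did not keep strand, so reads in overlapping genes cannot be told apart, and how they were assigned is not known.

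Counts were scaled by trimmed-mean factors, low-count genes were removed with filterByExpr, and each cell line was fitted alone (the lines together for comparisons between them) with the quasi-likelihood test of edgeR 4.0.16 in R 4.3.3. A call needed a log2 fold change over 1 in size and a Benjamini-Hochberg adjusted p under 0.05. Groups came from the sample labels. The submitters call the replicates biological. Levels per kb used the canonical transcript of GENCODE on GRCh37. The fit was tested on simulated data with known changes. DESeq2 1.42.0, other scalings and filters, a replicate block, offsets for GC content and length, vehicle control as reference and leaving out each library were the alternatives. Total counts of 17757206 to 22809339 a library set the precision of low members, and Poisson intervals and floors cover counting error only.

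The members and lists were chosen with earlier results of these data known. A gene and a marker that the rules take in are not reported here. Every member was described by level. Full statistics went to up to 8 called members per comparison by size of change with a mean of at least 1 CPM, and to a set of chains that form the main epithelial receptors and laminins. Partner genes were named as examples among called genes. Same-numbered replicates were not treated as pairs, since correlations of their deviations ran from -0.2 to 0.073.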

Additional observations from a re-analysis of the deposited data

Results flagged for a closer look

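The results listed here are tests of whether the CKI effect differed between backgrounds, given as differences of log2 fold changes from edgeR's quasi-likelihood test. With 5-FU in MDA-MB-231, where 6.84% of all tested genes were called, the CKI difference was higher with the drug for ITGA6 (1.03) and ITGB8 (1.18) and lower for ITGA7 (-1.20) and LAMA1 (-2.29). Without CKI replicate 1, ITGA6 and ITGA7 were not called, at 1.00 and -1.01.

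With doxorubicin in A431, where 19.5% of all tested genes were called, the CKI difference was higher with the drug for ITGA4 (1.65), ITGB4 (1.27) and ITGAD (1.47) and lower for LAMB2 (-1.20). ITGAD kept its call in 9 of 21 alternatives.

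Between the lines, where 18.5% of all tested genes were called, the CKI log2 fold change was higher in A431 for ITGB8 (2.45), ITGA2 (2.02), LAMA4 (1.68), ITGAV (1.47), ITGB1 (1.35), LAMA2 (1.18) and LAMB1 (1.07). It was lower in A431 for ITGA4 (-2.33) and ITGA7 (-1.45). LAMA2 kept its call in 15 of 21 alternatives and ITGA4 in 8 of 20. With vehicle control in place of untreated A431, LAMB1, ITGAV and ITGB1 were not called.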

How the results depend on the processing

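Of 85 called member results, 59 kept their call under every alternative run, and none of the called results reversed. Unless a share is given, counts of members under an alternative run are not set beside all genes called in that run. A change in such a count is not read as particular to the members. With the adjusted p alone, members called were 13 for CKI, 20 for 5-FU, 10 for CKI added to 5-FU and 11 for its interaction in MDA-MB-231. In A431 they were 14 for vehicle control, 22 for CKI, 31 for doxorubicin, 25 for CKI added to doxorubicin and 16 for its interaction. With 10 counts required in every library, 1 member was called for CKI in MDA-MB-231, 0 for vehicle control, 9 for doxorubicin and 11 between the untreated lines. Fitting the compared groups alone gave 1 for CKI in MDA-MB-231 and 0 for vehicle control; that setting could not differ for the CKI by 5-FU and cell line by CKI terms. Vehicle control also gave 0 with DESeq2, with no low-count filter, with the replicate block, with GC and length offsets and with both together. Doxorubicin against vehicle control gave 23.

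Leaving out 1 library gave 0 to 3 members for CKI and 2 to 7 for the CKI by 5-FU interaction in MDA-MB-231, and 0 to 2 for vehicle control. It gave 9 to 11 for 5-FU, 4 to 5 for CKI added to 5-FU, 8 to 10 for CKI in A431, 15 to 17 for doxorubicin, 7 to 8 for CKI added to doxorubicin, 3 to 5 for its interaction, 18 to 20 between the lines and 7 to 10 for the cell line by CKI term. The replicate block gave 2, 9, 4 and 4 members for CKI, 5-FU, the combination and the interaction in MDA-MB-231, and 0, 9, 15, 8 and 4 for vehicle control, CKI, doxorubicin, the combination and the interaction in A431. Same-numbered libraries did not deviate together, so the block has no design behind it. The cause of these shifts was not tested. Members under 1 CPM rest on few counts, so differences there are limited by depth.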
